A study of Mus musculus with 2 samples.

Results

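The genes described here are 10 that move calcium into, out of and within the sarcoplasmic reticulum (SR), the calcium store of muscle cells. They were taken by name (Ryr2, Jph2, Casq2, Casq1, Hrc, Asph, Atp2a2, Atp2a1, Pln and Slc8a1) from a table of 23609 genes, and all 10 are listed there. RNA-sequencing was performed on pericardial adipose tissue (PAT), the fat around the heart, of C57BL/6J mice harvested 24 hours after the left anterior descending artery (LAD) had been tied off for good, an infarction model. RNA of 3 P2Y4 KO mice, which carry a knockout of the nucleotide receptor P2Y4, was pooled into 1 library, and RNA of 3 WT mice into another. All mice had the ligation and none was a sham control, and the study used males and females aged 11 to 13 weeks. With 1 library per genotype no difference has a replicate check, and no p-value or SD is given. The listed genes hold 14879281 reads in the P2Y4 KO library and 15507054 in the WT library, recovered from the deposited values. Judging by their steps, these values are reads brought to a total of 20000000 per library and rounded up, a scaling that the authors do not describe. P2ry4, the deleted gene, is not listed, so the labels could not be checked against it. Genes without a WT read are not listed either. The tissue label was checked on 8 genes of mature adipocytes, whose summed CPM (read counts scaled to the library total) was 4043 in P2Y4 KO and 2117 in WT PAT, led by the fatty acid carrier Fabp4 (CPM 1914 and 1292).

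In heart and skeletal muscle, an action potential opens ryanodine receptors in the SR membrane, calcium floods the cytosol and the cell contracts. SERCA pumps then return the calcium to the SR, where calsequestrin buffers it, and the sodium/calcium exchanger expels the remainder across the cell membrane. Adipocytes have no such contractile store, but SERCA2 is the housekeeping pump of the endoplasmic reticulum of most cells, and in mouse beige adipocytes a cycle of calcium through RYR2 and SERCA2 has been described as a source of heat without UCP1.

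All 10 genes had more scaled reads in P2Y4 KO than in WT PAT, by very unequal factors. Pln, Casq2, Hrc and Ryr2, which serve the SR of the heart, were 18.4 to 101 times higher. Jph2 was 2.95 times higher, Atp2a1 stood exactly on the 2-fold threshold, and Slc8a1, Asph, Casq1 and Atp2a2 lay below it. The threshold of the study's methods was applied, so that a gene is called higher where the P2Y4 KO value is 2 times the WT value or more and lower where it is 0.5 times or less, provided that its CPM exceeds 0.5. The methods do not say in which library, and here either one was enough. By this rule 6 of the 10 were higher and none was lower, beside 8.75% of all 18474 genes past the filter that were higher and 4.40% that were lower. The median log2 ratio was 1.28 over the 10 genes and 0.00 over all genes past the filter. Pln, Casq2, Hrc and Ryr2 passed the filter through the P2Y4 KO library alone and so had to differ. Among the other 6, which passed in both libraries, 2 were higher (Jph2 and Atp2a1), with a median log2 ratio of 0.83, beside 6.20% of the 17035 genes that passed in both. On a scale where 83 genes of ribosomal proteins have a median ratio of 1, all log2 ratios are 0.19 higher and Slc8a1 was called as well (7 of 10, beside 11.4% of all genes), and among all called genes 79.6% were higher in place of 66.6%. In bulk tissue, a higher number of cells of a type cannot be told apart from more RNA per cell.

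**Figure D1:**
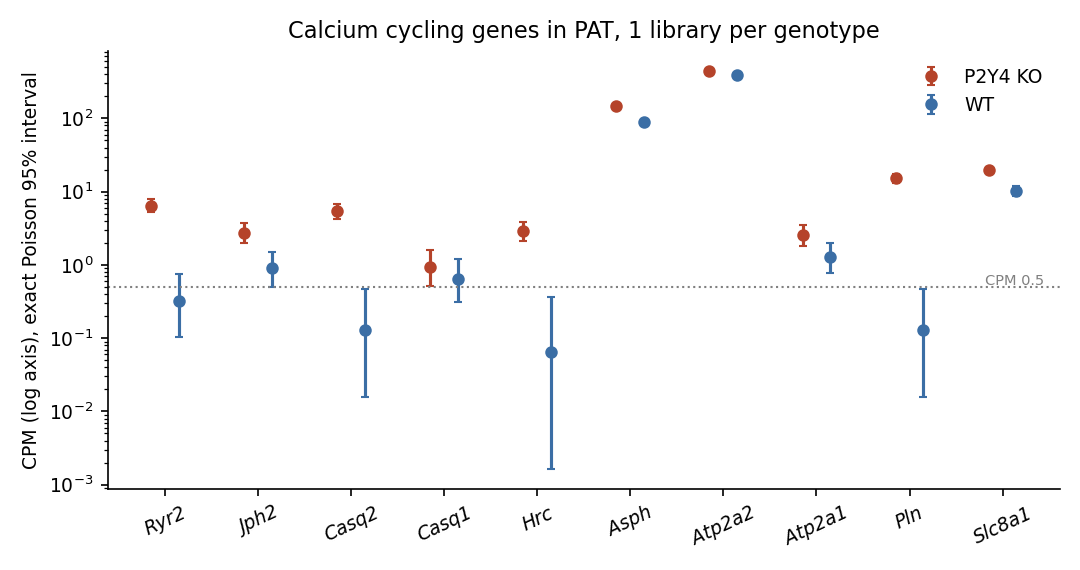
CPM of the 10 genes in the P2Y4 KO library (red, left of each pair) and the WT library (blue, right), on a log axis, with exact Poisson 95% intervals of the reads; the dotted line marks CPM 0.5. In WT PAT, Ryr2, Casq2, Hrc and Pln lie under the line, and Atp2a2 and Asph are the most abundant genes in both libraries.

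Calcium release was represented by Ryr2 and Jph2. Ryr2 encodes ryanodine receptor 2, the calcium release channel of the heart, on chromosome 13 (11553102 to 12106945, minus strand, GRCm38). It had 96 reads in P2Y4 KO PAT (CPM 6.45) and 5 reads in WT PAT (CPM 0.35). The ratio was 18.4, with an exact 95% interval from 8.28 to 63.0. This interval, as all those below, covers counting error in the 2 libraries and not differences between mice. Junctophilin 2, encoded by Jph2 on chromosome 2 (163336242 to 163397993, minus strand), ties the SR to the cell membrane so that the calcium channels of both membranes face each other. Jph2 had 41 reads in P2Y4 KO PAT (CPM 2.80) and 14 in WT PAT (CPM 0.95), and its ratio of 2.95 (1.63 to 6.06) has an interval that reaches below 2.

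The proteins of the SR lumen and junction fell into strongly and weakly differing genes. Casq2, the cardiac calsequestrin, which binds calcium inside the SR, lies on chromosome 3 (102086415 to 102146514, plus strand). It had 80 reads in P2Y4 KO PAT (CPM 5.40) and 2 in WT PAT (CPM 0.15), a ratio of 36.0 (11.2 to 350). Hrc, the histidine-rich calcium-binding protein of the SR (chromosome 7, 45335290 to 45338974, plus strand), had 43 reads in P2Y4 KO PAT (CPM 2.90) and 1 read in WT PAT (CPM 0.10). Its ratio was 29.0 (7.62 to 1810), or 44.8 from the recovered reads, because rounding up weighs most on a value of 1 read. Casq1, the calsequestrin of fast skeletal muscle, is on chromosome 1 (172209894 to 172219868, minus strand). It had 14 reads in P2Y4 KO PAT (CPM 0.95) and 10 in WT PAT (CPM 0.65), and with a ratio of 1.46 (0.603 to 3.67) no difference could be detected with so few reads. Casq1 thus passed the filter in both libraries only narrowly. Asph, on chromosome 4 (9448069 to 9669344, minus strand), encodes aspartate beta-hydroxylase, found in many tissues, and from the same locus the SR protein junctin, which anchors calsequestrin to the ryanodine receptor. It had 2171 reads in P2Y4 KO PAT (CPM 146) and 1366 in WT PAT (CPM 88.1), a ratio of 1.66 (1.55 to 1.77). The table has 1 value per gene, so junctin and the hydroxylase cannot be told apart, and the GENCODE M21 annotation gives the locus 15 protein-coding transcripts.

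Of the uptake genes, the inhibitor Pln differed most and the pump Atp2a2 least. Atp2a2 encodes SERCA2, the pump of heart, slow muscle and non-muscle cells, on chromosome 5 (122453513 to 122502225, minus strand). It was the most abundant of the 10, with 6509 reads in P2Y4 KO PAT (CPM 437) and 6147 in WT PAT (CPM 396). Its ratio of 1.10 (1.07 to 1.14) is the smallest of the 10, and the narrow interval lies far under 2. The cardiac form SERCA2a and the general form SERCA2b share this value. Atp2a1, the SERCA1 pump of fast skeletal muscle (chromosome 7, 126445858 to 126463108, minus strand), had 38 reads in P2Y4 KO PAT (CPM 2.60) and 20 in WT PAT (CPM 1.30). The ratio was 2.00 (1.12 to 3.59), and 1.98 from the recovered reads, so that its call rests on rounding. Pln encodes phospholamban, the small membrane protein that holds SERCA2 back until it is phosphorylated, on chromosome 10 (53337667 to 53345987, plus strand). It had 226 reads in P2Y4 KO PAT (CPM 15.2) and 2 in WT PAT (CPM 0.15), a ratio of 101 (32.2 to 978). Scaled by exon length, Pln stood at 76.6 per 1000 of Atp2a2 in P2Y4 KO PAT (66.7 to 87.4) and at 0.834 per 1000 in WT PAT (0.0868 to 2.59), both as CPM per kb. This restates the ratios of Pln, which has 2 WT reads, and of Atp2a2, which hardly differed. In bulk tissue the RNA of both genes need not come from the same cells, and inhibition of the pump was not tested.

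Calcium export was represented by Slc8a1, which encodes the sodium/calcium exchanger NCX1 of the cell membrane, on chromosome 17 (81373105 to 81738377, minus strand). It had 291 reads in P2Y4 KO PAT (CPM 19.6) and 158 in WT PAT (CPM 10.2), and its ratio of 1.92 (1.58 to 2.34) has an interval that holds 2. Of the 10 intervals, 9 lay above 1, that of Casq1 holding 1, and 4 lay wholly above 2 (Pln, Casq2, Hrc and Ryr2), beside 3.05% of all genes past the filter. These 4 passed the filter through the P2Y4 KO library alone and so had to differ. Of the other 6 of the 10 genes, which passed in both libraries, none had an interval wholly above 2.

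**Figure D2:**
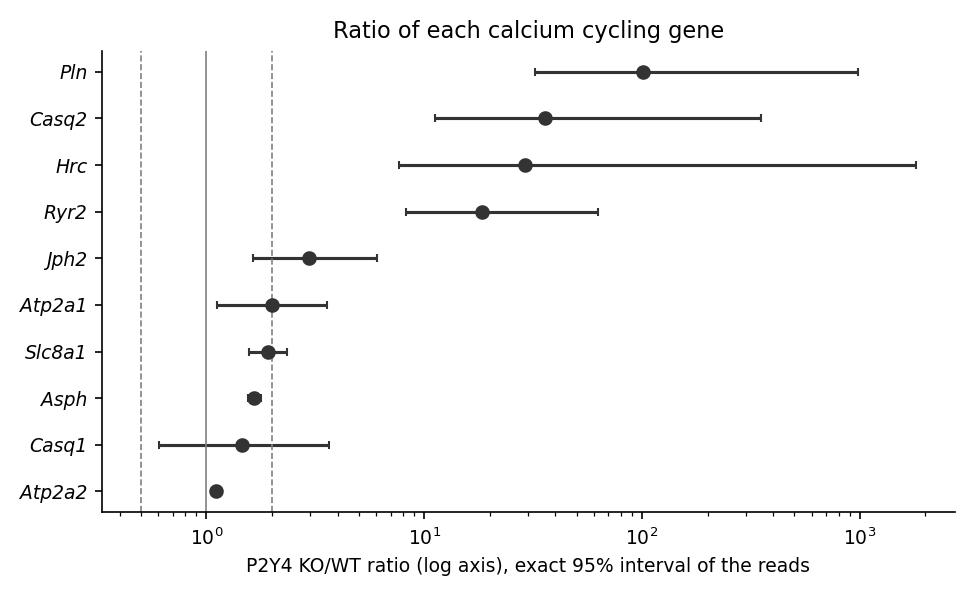
P2Y4 KO/WT ratio of each gene on a log axis, with the exact 95% interval of the reads; the solid line marks 1 and the dashed lines 0.5 and 2. The intervals of Pln, Casq2, Hrc and Ryr2 lie above 2, those of Jph2, Atp2a1, Slc8a1 and Casq1 hold 2, and those of Asph and Atp2a2 lie below it.

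Among all genes past the filter, ordered by ratio from the highest, Pln took position 7, Casq2 19, Hrc 26 and Ryr2 43. Jph2 followed at 734 and Atp2a1 at 1560, while Atp2a2 stood at 6836. The wide intervals of Pln, Casq2, Hrc and Ryr2 overlap, and their order among themselves was not tested. Their positions among all genes are uncertain, since they rest on 1 to 5 WT reads. Genes without a WT read take no position. Ryr2 has the greatest total exon length of the 10, and per kb its level was 0.224 CPM in P2Y4 KO PAT and 0.0122 CPM in WT PAT. On that scale Atp2a2 led with 71.9 CPM per kb in P2Y4 KO and 65.2 in WT PAT, followed by Asph with 9.06 and 5.47. Pln came next in P2Y4 KO PAT with 5.51 CPM per kb and stood at 0.0544 in WT PAT. Atp2a2 and Asph together held 91.3% of the summed CPM of the 10 genes in P2Y4 KO PAT and 97.2% in WT PAT. The sum over all 10 was 639 CPM in P2Y4 KO and 498 CPM in WT PAT, a ratio of 1.28, and without these abundant genes it was 55.9 and 13.9 CPM, a ratio of 4.03.

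**Figure D3:**
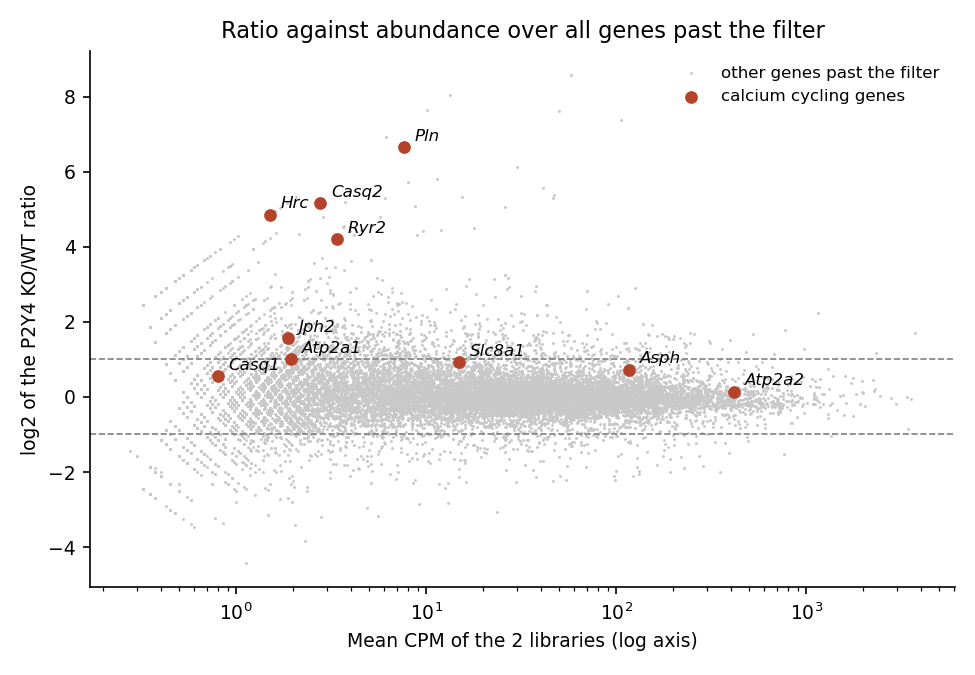
The log2 ratio of each gene past the filter (grey) against its mean CPM in the 2 libraries on a log axis, with the 10 calcium cycling genes in red and dashed lines at the 2-fold threshold. Pln, Casq2, Hrc and Ryr2 lie at log2 ratios of 6.66, 5.17, 4.86 and 4.20, above most genes of like abundance, and Atp2a2 lies at 0.14.

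The promoters of the 4 genes that differed most are shown. These genes were picked by their ratios in these same data, and whether they share regulation was not tested. Each window holds 300 bases on the gene's own strand, from 250 before to 50 after the RefSeq start, in GRCm38.p6, and promoters of 8 of the 10 genes could be matched. Capitals mark E-boxes (CANNTG, the letters read by bHLH factors such as those of muscle) and, in Casq2, a match to the MEF2 site.
Pln, chr10:53337436-53337735, plus strand: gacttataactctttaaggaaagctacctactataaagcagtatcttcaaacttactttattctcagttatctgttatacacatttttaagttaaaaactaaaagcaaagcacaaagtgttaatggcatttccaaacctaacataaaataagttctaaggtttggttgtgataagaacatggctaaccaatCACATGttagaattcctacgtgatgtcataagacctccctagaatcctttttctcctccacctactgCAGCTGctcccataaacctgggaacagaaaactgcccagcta
Casq2, chr3:102086165-102086464, plus strand: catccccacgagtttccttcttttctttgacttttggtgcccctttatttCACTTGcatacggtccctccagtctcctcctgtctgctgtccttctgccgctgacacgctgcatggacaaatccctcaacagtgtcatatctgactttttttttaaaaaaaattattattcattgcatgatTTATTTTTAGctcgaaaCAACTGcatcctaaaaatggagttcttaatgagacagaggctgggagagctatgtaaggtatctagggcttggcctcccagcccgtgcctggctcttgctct
Hrc, chr7:45335019-45335318, plus strand: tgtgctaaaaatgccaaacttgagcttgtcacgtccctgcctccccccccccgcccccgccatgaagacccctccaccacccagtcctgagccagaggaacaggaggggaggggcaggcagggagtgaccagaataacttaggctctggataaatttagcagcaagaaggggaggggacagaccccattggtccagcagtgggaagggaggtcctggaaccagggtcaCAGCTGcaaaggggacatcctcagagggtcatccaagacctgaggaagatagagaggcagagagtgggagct
Ryr2, chr13:12106896-12107195, minus strand: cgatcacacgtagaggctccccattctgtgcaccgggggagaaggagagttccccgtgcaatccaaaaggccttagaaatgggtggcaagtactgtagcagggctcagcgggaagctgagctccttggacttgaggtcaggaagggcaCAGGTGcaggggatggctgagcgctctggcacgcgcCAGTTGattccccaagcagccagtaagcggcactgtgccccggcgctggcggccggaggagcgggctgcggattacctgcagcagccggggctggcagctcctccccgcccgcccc

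An E-box occurred in all 8 matched promoters, among them those of Casq1, Atp2a1 and Slc8a1, beside 72.3% of 32851 RefSeq promoters of the same length. It is therefore not particular to the genes with large ratios. In Pln its copies begin at -59 and 9 from the start, in Ryr2 at -102 and -66, in Casq2 at -200 and -52, and in Hrc at -22. The MEF2 site, an A/T-rich element bound by muscle regulators, was searched on both strands by its usual consensus and found once, in Casq2 at -69 (TTATTTTTAG), beside 3.19% of all promoters. The GATA motif AGATAA, searched on both strands, occurred in Pln and Slc8a1 (11.2% of all promoters), and TATAAA on the gene's strand in Pln alone (8.32%). The M-CAT motif CATTCC (14.7%) and the CArG box (1.63%), both searched on both strands, were in none of the 8 windows. These matches are letters in a window and not measured binding.

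Within the families of these genes, the paralogue among the 10 genes that serves the heart took a larger share of the reads in P2Y4 KO than in WT PAT in all but the SERCA pumps. These shares restate the ratios given above. Ryr2 and Casq2 passed the filter through the P2Y4 KO library alone, so their larger shares there are no separate result. Shares are given of reads, not per length, to compare the same gene between the libraries. Of the ryanodine receptor reads, Ryr2 took 40.9% in P2Y4 KO PAT (34.5 to 47.4, exact binomial 95% interval) and 4.13% in WT PAT (1.36 to 9.38). Ryr1, the skeletal muscle channel, which also occurs elsewhere, had CPM 9.10 in P2Y4 KO and 7.25 in WT PAT (ratio 1.26, 0.970 to 1.63), and Ryr3 had 4 reads in each library. Of the calsequestrin reads, Casq2 took 85.1% in P2Y4 KO PAT (76.3 to 91.6) and 16.7% in WT PAT (2.09 to 48.4). Per kb of exon, Casq2 held 80.2% of the calsequestrin CPM in P2Y4 KO PAT and 14.1% in WT PAT, so that it was the leading calsequestrin in the P2Y4 KO library and Casq1 in the WT library, where these shares rest on 10 and 2 reads.

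Jph2 took 40.6% of the junctophilin reads in P2Y4 KO PAT (30.9 to 50.8) and 13.6% in WT PAT (7.64 to 21.8), and Jph3, a junctophilin known from the brain, was lower in P2Y4 KO PAT, with 12 reads against 34 (ratio 0.386, 0.173 to 0.728). Slc8a1 took 91.8% of the exchanger reads in P2Y4 KO PAT (88.2 to 94.6) and 82.3% in WT PAT (76.1 to 87.4). The SERCA family kept its make-up, with Atp2a2 at 87% in P2Y4 KO PAT (86.2 to 87.7) and 87.2% in WT PAT (86.4 to 88.0). Atp2a3, the SERCA3 pump known from blood and epithelial cells, held 12.5% in both libraries, and Atp2a1 held 0.508% in P2Y4 KO and 0.284% in WT PAT.

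**Figure D4:**
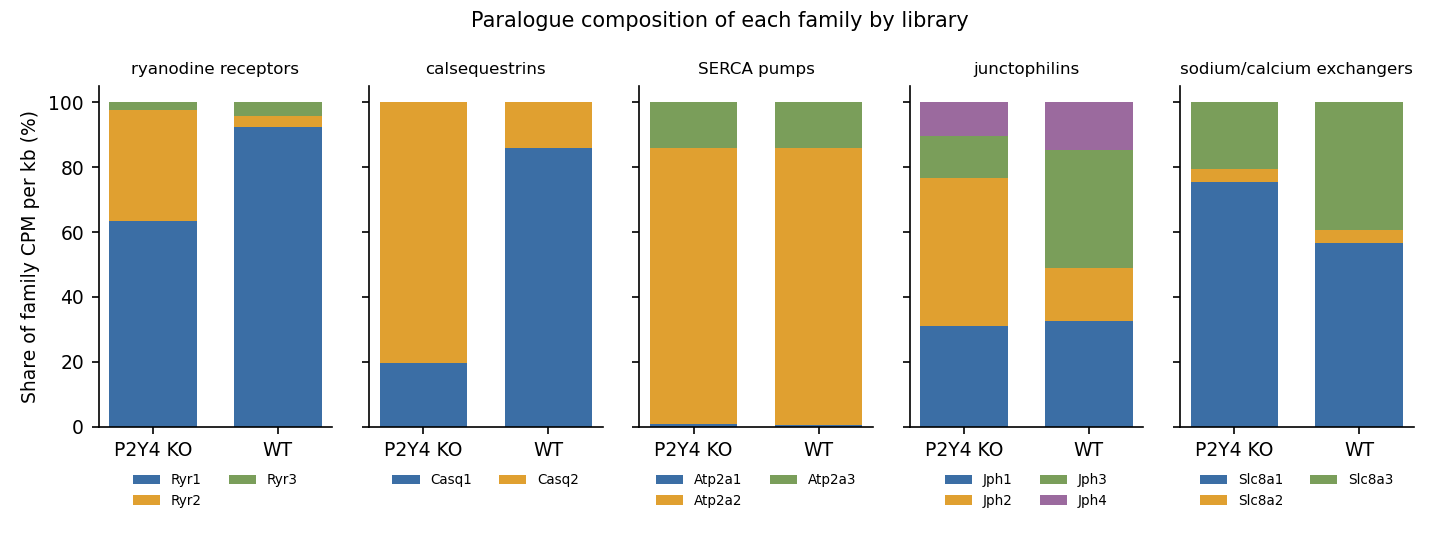
Share of each paralogue in the summed CPM per kb of its family, in percent, for the P2Y4 KO library (left bar) and the WT library (right bar) of each panel. Ryr2, Casq2 and Jph2 take larger shares in P2Y4 KO PAT, and the SERCA bars are alike, with Atp2a2 at 85.0% and 85.4%.

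Of 52 further genes of calcium handling, 47 are listed and 43 passed the filter. Of these, 4 were higher in P2Y4 KO PAT (9.30%, against 8.75% of all genes), 1 was lower and 38 lay within the threshold, with a median log2 ratio of 0.06. The share higher lay near that over all genes. Srl, which encodes the SR lumen protein sarcalumenin, had CPM 13.3 in P2Y4 KO and 3.20 in WT PAT (ratio 4.14, 3.05 to 5.85). Cav3, the muscle caveolin of the T-tubule membrane, had 27 reads in P2Y4 KO PAT and 4 in WT PAT (ratio 6.17, 2.45 to 27.7) and passed the filter through the P2Y4 KO library alone. Ppp1r1a, the inhibitor 1 of protein phosphatase 1, which raises phospholamban phosphorylation in the heart, had CPM 9.15 in P2Y4 KO and 4.35 in WT PAT (ratio 2.10, 1.57 to 2.88). Camk2b, a calmodulin-dependent kinase chain, was the fourth, with 28 reads in P2Y4 KO and 14 in WT PAT (ratio 2.00, 1.06 to 4.28). Jph3 was the lower gene.

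The abundant genes of the pathway stayed within the threshold, at ratios on both sides of 1. Of 20 listed genes of SR release and its regulation, Calm2, which encodes calmodulin, stood at CPM 278 in P2Y4 KO and 334 in WT PAT, and Fkbp1a, the FKBP12 subunit of ryanodine receptors, at 255 and 291. None of 10 genes of the calcium store of most cells passed the threshold, with the luminal buffer Calr at CPM 1251 in P2Y4 KO and 904 in WT PAT (ratio 1.38, 1.36 to 1.42), Canx at 504 and 448 and the IP3 receptor gene Itpr3 at 48.8 and 65.7 (ratio 0.743, 0.674 to 0.817). Another IP3 receptor gene, Itpr1, lay on the other side of 1, at CPM 64.2 in P2Y4 KO and 43.8 in WT PAT (ratio 1.47, 1.33 to 1.62). Of the 12 membrane channels, exchangers and pumps past the filter, whose median log2 ratio was -0.36, the plasma membrane pump Atp2b1 had CPM 145 in P2Y4 KO and 192 in WT PAT (ratio 0.753, 0.712 to 0.796). Bin1, which shapes T-tubules, had 154 and 129, and Atp2b4 45.6 and 64.3 (ratio 0.709, 0.642 to 0.783). Cacna1c, the pore of the cardiac L-type channel that triggers Ryr2, had 61 reads in P2Y4 KO and 60 in WT PAT (ratio 1.05, 0.729 to 1.54). Itpr1 and Cacna1c are named besides those the rule takes, after their values were seen. Hax1, a partner of phospholamban, had a ratio of 0.987. Triadin (Trdn), the SERCA inhibitors Sln, Mrln and Strit1, and Atp2b3 are not listed under these symbols and were not analysed here. Since genes without a WT read are not listed, a gene read only in P2Y4 KO PAT could not count as higher. This holds for the calcium genes and for all genes.

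Markers of several cell types moved with these genes. Of 16 cardiomyocyte markers, none of them among the 10 genes, 14 are listed, and the 13 past the filter were all called higher (median log2 ratio 5.38), as were the 7 that passed in both libraries (5.06). Their summed CPM was 617 in P2Y4 KO and 14.6 in WT PAT, and the most abundant were the myosin Myh6 with CPM 115 and 0.30, the troponin Tnnt2 with 99.5 and 0.50, and the myoglobin Mb with 91.5 and 2.20. The study also counts Mb among the genes of brown fat cell differentiation, so this marker is not particular to cardiomyocytes. The ventricular light chain Myl2 had 3 reads in each library, and Actc1 and Myh7 are not listed. The light chains Myl4 and Myl7, named besides those the rule takes, had CPM 90.45 and 80.45 in P2Y4 KO PAT. In WT PAT they had 2.3 and 1.7. Ratios in the list ran from 1.25 (Myl2) to 382 (Myh6). All 9 brown and beige adipocyte markers were higher too (median log2 ratio 4.51), among them the 7 that passed in both libraries (4.51), with a summed CPM of 432 in P2Y4 KO and 18.1 in WT PAT. Ucp1 stood at CPM 210 and 1.25, Cox8b at 67.3 and 8.65 and Cidea at 59.3 and 0.85.

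Set beside these sums, the 4 genes Pln, Ryr2, Casq2 and Hrc, which passed the filter through the P2Y4 KO library alone, together had 445 reads in P2Y4 KO PAT and only 10 in WT PAT. Per 100 cardiomyocyte marker reads this made 4.85 in P2Y4 KO PAT (4.40 to 5.33) and 4.52 in WT PAT (2.14 to 8.48). Per 100 brown and beige marker reads it made 6.93 in P2Y4 KO PAT (6.28 to 7.63) and 3.61 in WT PAT (1.71 to 6.74). Per 100 skeletal muscle marker reads the values were 49.3 in P2Y4 KO PAT (43.9 to 55.3) and 5.59 in WT PAT (2.63 to 10.5). They were 23.8 and 0.593 per 100 smooth muscle marker reads, 22.3 and 0.724 per 100 endothelial, 5.97 and 0.0398 per 100 mesothelial and 0.739 and 0.0305 per 100 mature adipocyte marker reads, in P2Y4 KO and in WT PAT. These values are a description, chosen after the data had been seen, of genes that differed most, and the part of any of these cell types in the ratios was not tested. They also depend on which markers a list holds, here shown by genes named besides those the rule takes. Of 221 cardiomyocyte marker reads in WT PAT, Ttn held 36, Myl4 35, Mb 34 and Mybpc3 33. Myh6 held 4 of them, beside 1707 of 9178 in P2Y4 KO PAT. Of 277 brown and beige marker reads in WT PAT, Cox8b held 134 and Prdm16 57.

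Among 14 skeletal muscle markers 12 passed the filter and 9 of them were higher (median log2 ratio 1.88), or 4 of the 7 that passed in both libraries (1.47), with a summed CPM of 61.0 in P2Y4 KO and 11.9 in WT PAT. The light chain Myl1 had CPM 22.5 and 3.05, the creatine kinase Ckm, which the heart also makes, 16.9 and 0.50, and Acta1 3.90 and 1.25. The fast myosin genes Myh1, Myh2 and Myh4, named besides those the rule takes, had 26, 5 and 14 reads in P2Y4 KO PAT and 1, 2 and 1 in WT PAT. Myh1 and Myh4 passed the filter through the P2Y4 KO library alone, and Myh2 did not pass. Actn3 went the other way, with 10 reads in P2Y4 KO and 14 in WT PAT (ratio 0.737, 0.296 to 1.80). These values stand beside those of Atp2a1 and Casq1, the skeletal muscle members, and their part in the Atp2a1 ratio was not tested. Of 4 smooth muscle markers past the filter none passed the threshold, Acta2 having CPM 45.8 in P2Y4 KO and 30.6 in WT PAT, Smtn 37.3 and 37.8 and Tagln 35.8 and 34.8. Of 8 mature adipocyte markers 6 were higher (median log2 ratio 1.46), or 5 of the 7 that passed in both libraries (1.43), with Pnpla2 at CPM 454 in P2Y4 KO and 168 in WT PAT and Cidec at 452 and 162. Of 6 endothelial markers 3 were higher (Vwf, Cdh5 and Tie1) and Kdr was lower. Vwf stood at CPM 39.6 in P2Y4 KO and 11 in WT PAT and Cdh5 at 21.4 and 9.65. Pecam1, at 37.1 and 27.9, lay within the threshold. Of 5 mesothelial markers 4 were lower (median log2 ratio -1.84), Msln with CPM 141 and 558, Upk3b with 125 and 449 and Lrrn4 with 118 and 286.

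**Figure D5:**
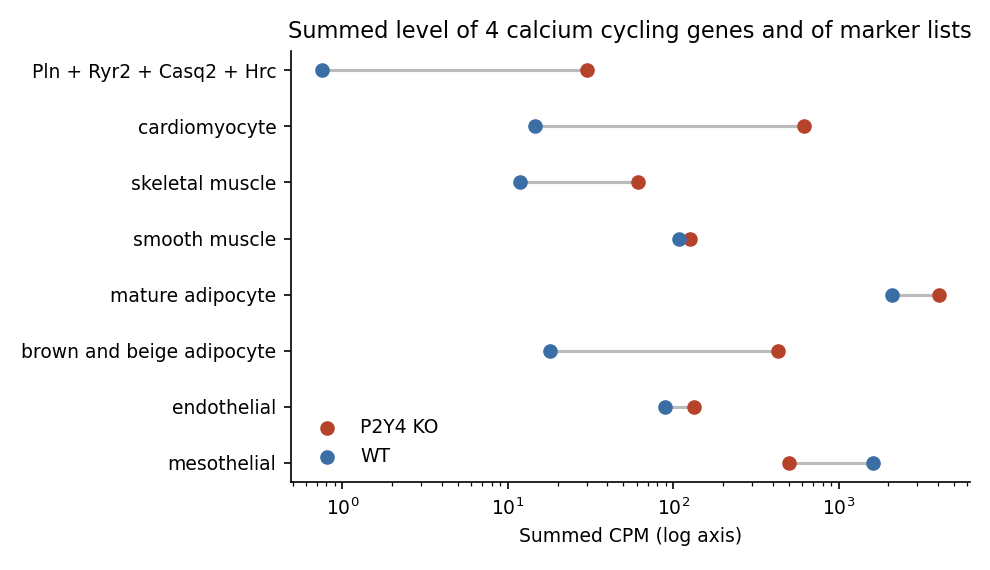
Summed CPM on a log axis of Pln, Ryr2, Casq2 and Hrc and of each marker list, in the P2Y4 KO library (red) and the WT library (blue), joined by a line. The sum of the 4 genes was 29.95 CPM in P2Y4 KO and 0.75 CPM in WT PAT, and of the marker sums only the mesothelial one was lower in P2Y4 KO PAT.

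Some reads could belong to neighbours. In the annotation, exons of Pln share 141 bases with the opposite-strand gene Cep85l, which had CPM 13.7 in P2Y4 KO and 14.1 in WT PAT, and 1644 bases with Gm47644, which is not listed. Exons of Atp2a1 share 763 bases with Rabep2 (CPM 30.1 and 25.3) and those of Asph 2302 bases with Clvs1 (CPM 13.6 and 8.35), both on the opposite strand. Opposite-strand exons also overlap Atp2a2 (83 bases with Gm43361, CPM 22.8 and 19.3) and Casq1 (156 bases with Gm17224, CPM 0.30 and 0.15). Slc8a1 shares 296 bases with AC122399.1, which is not listed, and 8 with Gm11096 (CPM 1.25 and 1.05). The library kit keeps strand, but the strand setting of the counting is not given in the sources used here, so the values of Pln, Atp2a1 and Asph are less certain, and the part of reads from these neighbours was not tested.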

How the data were processed

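The members and gene lists were chosen with earlier results of these data known. According to the submitters' processing notes and the study's methods, reads were trimmed with Trimmomatic, mapped to GRCm38.p4 (mm10) with STAR and counted per gene with HTSeq on Ensembl annotation. Neither tool versions nor the strand setting were given in the sources used here. Judging by its values, the deposited signal is the read count of a gene after the authors brought each library to a total of 20000000 and rounded up, a scaling that is not described. The authors also deposited P2Y4 KO/WT ratio columns and a list of regulated genes, which were not used. The design had foreseen reads as deposited or recovered from the steps between values. A value was taken as recovered when a multiple of the fitted value of 1 read (1.34 in P2Y4 KO, 1.29 in WT) gives it exactly on rounding up, as for 99.84% and 99.88% of values. This gave depths of 14885821 and 15508822 reads. The median gene past the filter had 269 reads in either library. CPM was the deposited value divided by 20, and ratios used no pseudocount. Intervals are Clopper-Pearson intervals of the recovered reads, conditional on their sum, and cover counting error only. No count model was fitted, since each genotype has 1 library. A median log2 ratio used 3 reads in place of 0. The recovery and intervals were tested on simulated data. Lengths are GENCODE M21 exon unions on GRCm38, also the source of gene coordinates. Named are all members, calcium genes past the threshold and the 3 most abundant of each list (for markers, in the library with the higher sum), and unlisted, unmatched or low genes where a count turns on them. The value of 1 gene that this rule takes is not reported here. Alternatives were 4 other scalings, 0.5 CPM added, 3 other filters, the whole interval past the threshold and, added after seeing the data, recovered reads in place of the deposited values. Python 3.11.15, scipy 1.17.1, numpy 2.4.6, pandas 2.3.3 and matplotlib 3.10.9 were used.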

Additional observations from a re-analysis of the deposited data

How the results depend on the processing

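With the filter set to CPM above 0.5 in both libraries, 2 of the 10 genes were counted past the 2-fold threshold in place of 6, since Pln, Casq2, Hrc and Ryr2 then drop out for want of WT reads. Under the other alternatives the count was 4 (whole interval past 2), 5 (TMM, 0.5 CPM added, and recovered reads, the last chosen after seeing the data), 6 or 7 (ribosomal protein genes set to 1). The counts of 5 under TMM and recovered reads leave out Atp2a1, which lies on the threshold. Over all alternatives the median log2 ratio ran from 0.83 to 1.56. Of 60 recomputed single ratios, 6 left their exact interval and none changed direction. With 0.5 CPM added, the ratios were 24.2 for Pln, 9.08 for Casq2, 8.18 for Ryr2 and 5.67 for Hrc, which shows how far their size rests on 1 to 5 WT reads. No paired analysis was possible because each genotype has 1 library, and for the same reason no replicate could be left out.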
